A study of Mus musculus with 8 samples.

Results

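The embryos compared here were each depleted, at the RNA level, of 1 of a pair of closely related genes: Rbbp4 in Rbbp4 knockdown embryos and Rbbp7 in Rbbp7 knockdown embryos. Protein levels were not measured in these data. The comparison holds the 4 libraries whose titles name a single knockdown, 2 per knockdown, of the 8 libraries in the series. All were polyadenylated RNA of whole mouse late morulae collected 78 h after fertilization. Each zygote had received small interfering RNA (siRNA) by injection: against Rbbp4 in Rbbp4 knockdown embryos, against Rbbp7 in Rbbp7 knockdown embryos, against both in double knockdown embryos, and a non-specific siRNA in control embryos, with 2 libraries per group. No strain or genotype, number of embryos per library or siRNA sequence is given in the sources used here. Whether libraries of 1 group were made from different pools of embryos is not stated, so the p-values measure only how far these libraries spread, which may be technical. The question was which genes respond to the knockdown of either gene differently from the knockdown of the other.

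RBBP4 and RBBP7 are WD40-repeat proteins that bind histones H3 and H4. They serve as shared subunits of several chromatin complexes: the NuRD and SIN3 histone deacetylase complexes, the polycomb complex PRC2, which methylates histone H3, and chaperones that hand histones to DNA. The late morula is the stage at which outer cells turn to trophectoderm, the epithelium that will form the placenta, while inner cells keep the pluripotency programme.

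Values are the authors' DESeq2-normalized abundances per gene, whose sequencing depth is unknown, and differences are Rbbp4 knockdown minus Rbbp7 knockdown on log2(value + 1). Each siRNA lowered its own target, and the other gene's difference from the control did not pass. Rbbp4 read 402 and 343 in Rbbp4 knockdown embryos, 4369.7 and 4467 in Rbbp7 knockdown embryos, 348 and 433 in double knockdown embryos and 5300.1 and 4710.0 in control embryos. Rbbp7 read 6696 and 6295 in Rbbp4 knockdown embryos, 298 and 293 in Rbbp7 knockdown embryos, 327 and 266 in double knockdown embryos and 8399 and 7205 in control embryos. In the Rbbp4 knockdown the Rbbp4 level was 8.43% of that in Rbbp7 knockdown embryos, and in Rbbp7 knockdown embryos the Rbbp7 level was 4.55% of that in Rbbp4 knockdown embryos. Against the control, Rbbp7 had a log2 difference of −0.26 ± 0.14 in Rbbp4 knockdown embryos (adjusted p = 0.858), and Rbbp4 had −0.18 ± 0.15 in Rbbp7 knockdown embryos (adjusted p = 0.737).

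Column totals of the 8 libraries lay between 11334107 and 12011829. The mean variance between the 2 libraries of a group was 0.232 in Rbbp4 knockdown embryos and 0.236 in Rbbp7 knockdown embryos on the log2 scale, against 0.335 in double knockdown embryos and 0.415 in control embryos. Control replicate 1 stood apart, where 3937 genes had a value of 0 (2644 to 3237 elsewhere). The difference between the single knockdowns is not computed from it. It does enter the estimate of spread and the mean over all 8 libraries by which genes were filtered. Of 12 genes that define the late morula stage all 12 passed the filter; 9 had higher and 3 lower values in Rbbp4 knockdown embryos than in Rbbp7 knockdown embryos, with a median difference of 0.18. None of the 12 passed the test, 4 higher and 1 lower had an unadjusted p below 0.05 (41.7% against 9.3% of all tested genes), and the single knockdowns did not overlap in 75% against 45.6%. Markers of other cell types stayed low: summed over the list, fibroblast and oviduct genes read 27.2 to 28.6 in Rbbp4 knockdown embryos and 30.2 to 43.7 in Rbbp7 knockdown embryos, blood genes 70.2 to 71.4 in Rbbp4 knockdown embryos and 47.8 to 49.8 in Rbbp7 knockdown embryos, and sperm genes 0 to 1.58 in Rbbp4 knockdown embryos and 1.05 to 4.76 in Rbbp7 knockdown embryos. Cumulus and granulosa genes summed to 3218 to 3505 in Rbbp4 knockdown embryos and 3210.3 to 3902 in Rbbp7 knockdown embryos, mostly Nr5a2, which embryos express themselves.

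Few genes differed between the single knockdowns, and besides the targets they were mostly genes with higher values in Rbbp4 knockdown embryos. Of 12565 genes tested, 10 passed at an adjusted p below 0.05 (limma with Benjamini-Hochberg adjustment), or 0.0796%. Of these, 8 were higher in Rbbp4 knockdown embryos than in Rbbp7 knockdown embryos (0.0637% of genes) and 2 were lower (0.0159%). Apart from the 2 targets, the higher genes were Enpep, Dcbld2, Cubn, Gm12613, Neu1, Tmem64 and Fabp3, and the lower gene was Ndufa9. Of these, Gm12613 passed the filter on low values only through the groups given siRNA against Rbbp4. At an unadjusted p below 0.05, 1168 genes passed (9.3%), against 628 that chance alone would give, 677 of them higher (5.39%) and 491 lower (3.91%). This excess was not stable. It shrank when any 1 single knockdown library was left out, and nearly vanished without Rbbp4 knockdown replicate 1, in fits that also have less power. The median difference over all tested genes was −0.002, and the median absolute difference was 0.208. Single libraries moved the count: it was 6 without Rbbp7 knockdown replicate 2, and the 8 higher genes became 3 without Rbbp4 knockdown replicate 1, 2 without Rbbp4 knockdown replicate 2 and 4 without Rbbp7 knockdown replicate 2. The 2 lower genes became 4 and 5 without Rbbp4 knockdown replicates 1 and 2, and 4 without either double knockdown library. Against the control, 3 genes passed in each single knockdown (0.0239%): Rbbp4, Ndufa9 and Gm12613 in Rbbp4 knockdown embryos, and Rbbp7, Enpep and Fabp3 in Rbbp7 knockdown embryos. With no intensity trend in the variance model, 7 genes were called, of which 4 were among the 10 (Rbbp4, Rbbp7, Ndufa9 and Gm12613). The calls of Enpep (adjusted p = 0.0587), Dcbld2 (0.116), Cubn (0.130), Neu1 (0.212), Tmem64 (0.229) and Fabp3 (0.265) ended under that model. The counts without a library take the remaining library of a group to vary like the other groups.

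**Figure D1:**
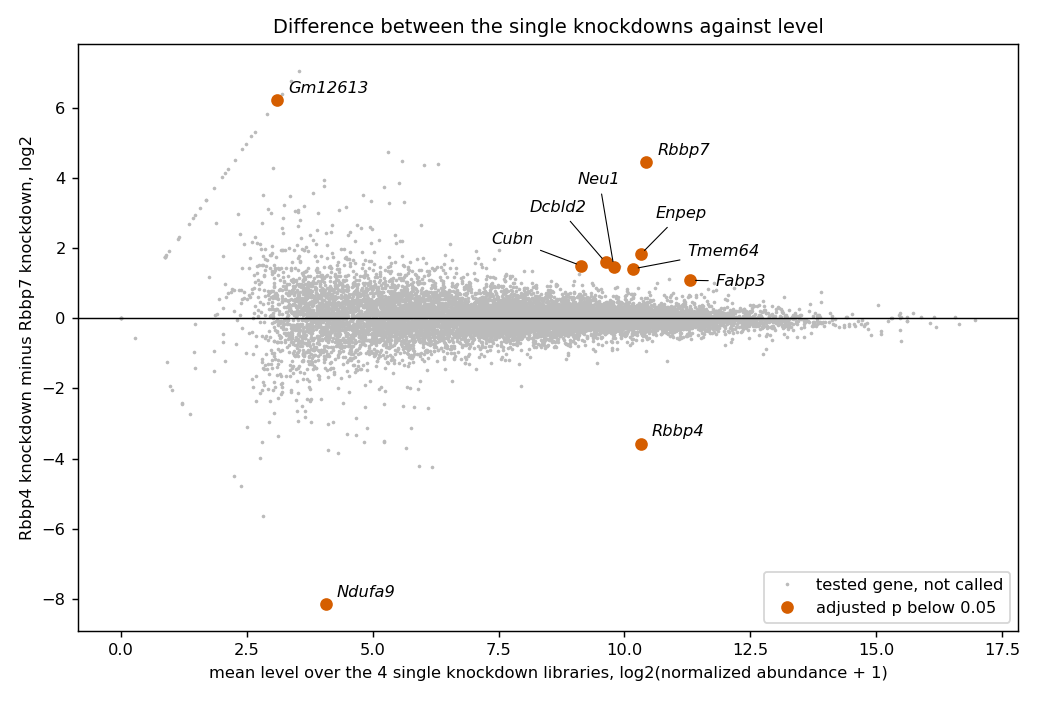
The log2 difference, Rbbp4 knockdown minus Rbbp7 knockdown (vertical axis), is plotted against the mean log2(value + 1) over the 4 single knockdown libraries (horizontal axis) for the 12565 tested genes. The 10 called genes are drawn large and named, and Enpep, Dcbld2, Cubn, Neu1, Tmem64 and Fabp3 lie above the cloud at log2 differences of 1.08 to 1.82.

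Enpep, the membrane-bound glutamyl aminopeptidase that trims angiotensin II, gave the smallest adjusted p after the 2 targets and Ndufa9 (ENSMUSG00000028024, chromosome 3, 129269175 to 129332720). It read 2508 and 2311 in Rbbp4 knockdown embryos, 681 and 680.4 in Rbbp7 knockdown embryos, 1029 and 1317 in double knockdown embryos and 2056 and 2135 in control embryos. Both Rbbp7 knockdown libraries lay far below every other library, while the Rbbp4 knockdown lay just above the control and did not overlap it. The difference between the single knockdowns was 1.82 ± 0.14 (adjusted p = 9.91e-04). Against the control, Enpep had 0.20 ± 0.14 in Rbbp4 knockdown embryos (adjusted p = 0.892) and fell by 1.62 ± 0.14 in Rbbp7 knockdown embryos (adjusted p = 0.00547) and by 0.85 ± 0.14 in double knockdown embryos (adjusted p = 0.0306). Its call between the single knockdowns held without each library in turn and ended with no intensity trend (adjusted p = 0.0587). Exons of Dcbld2, Cubn, Fabp3, Ndufa9, Rbbp4 and Rbbp7 overlap genes on the other strand, and those of Enpep, Neu1 and Tmem64 do not; whether strand was used in counting is not given, so reads of such pairs cannot be told apart.

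Cubn encodes cubilin, an endocytic receptor of the apical surface that works with megalin (Lrp2) in the visceral endoderm (ENSMUSG00000026726, chromosome 2, 13276338 to 13491813). It read 1004 and 898 in Rbbp4 knockdown embryos, 303 and 375 in Rbbp7 knockdown embryos, 755 and 804 in double knockdown embryos and 641 and 676 in control embryos. The 4 groups did not overlap: the Rbbp4 knockdown was highest, the Rbbp7 knockdown lowest, and the double knockdown above the control. The difference between the single knockdowns was 1.49 ± 0.15 (adjusted p = 0.00823). Against the control it had 0.53 ± 0.15 in Rbbp4 knockdown embryos (adjusted p = 0.723) and −0.96 ± 0.15 in Rbbp7 knockdown embryos (adjusted p = 0.129), so neither side alone passed. The call ended without Rbbp4 knockdown replicate 1 (adjusted p = 0.164) or 2 (0.0848) or Rbbp7 knockdown replicate 1 (0.05004), and the adjusted p ran from 0.00252 to 0.164 over 18 alternatives.

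Dcbld2, which encodes a neuropilin-like membrane receptor, lay above the control in 1 single knockdown and below it in the other, as Cubn did (ENSMUSG00000035107, chromosome 16, 58408443 to 58469727). It read 1264 and 1484 in Rbbp4 knockdown embryos, 420.3 and 493 in Rbbp7 knockdown embryos, 1722 and 1543 in double knockdown embryos and 755 and 689 in control embryos. Each Rbbp4 knockdown library was above both controls and each Rbbp7 knockdown library below them, and the double knockdown was highest. The single knockdowns differed by 1.59 ± 0.15 (adjusted p = 0.00414). The difference from the control was 0.92 ± 0.15 in Rbbp4 knockdown embryos (adjusted p = 0.211), −0.66 ± 0.15 in Rbbp7 knockdown embryos (adjusted p = 0.213) and 1.17 ± 0.15 in double knockdown embryos, where it rose (adjusted p = 0.0144). The call between the single knockdowns ended without Rbbp4 knockdown replicate 2 (adjusted p = 0.0848). Over the 18 alternatives it ran from 0.00118 to 0.116.

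Neu1, the lysosomal sialidase that trims sialic acid from glycoproteins (ENSMUSG00000007038, chromosome 17, 34931253 to 34935953), read 1371 and 1573 in Rbbp4 knockdown embryos, 583 and 486 in Rbbp7 knockdown embryos, 1079 and 967 in double knockdown embryos and 1051 and 1439.8 in control embryos. Tmem64, which encodes a transmembrane protein (ENSMUSG00000043252, chromosome 4, 15265831 to 15286753), read 1628 and 2153 in Rbbp4 knockdown embryos, 729 and 684 in Rbbp7 knockdown embryos, 2104 and 1564 in double knockdown embryos and 1916 and 1774 in control embryos. In both genes the Rbbp7 knockdown alone stood low, and the other 3 groups overlapped at least in part. The difference was 1.46 ± 0.18 for Neu1 (adjusted p = 0.0251) and 1.41 ± 0.18 for Tmem64 (adjusted p = 0.0301). Against the control, Neu1 had 0.25 ± 0.18 in Rbbp4 knockdown embryos (adjusted p = 0.892) and −1.21 ± 0.18 in Rbbp7 knockdown embryos (adjusted p = 0.0916). Tmem64 had 0.02 ± 0.18 in Rbbp4 knockdown embryos (adjusted p = 0.994) and −1.38 ± 0.18 in Rbbp7 knockdown embryos (adjusted p = 0.0616). Both calls ended when any 1 library of the single knockdowns was left out, at adjusted p values of 0.187 and 0.214 for Neu1 without Rbbp4 knockdown replicates 1 and 2 and 0.0569 and 0.228 without Rbbp7 knockdown replicates 1 and 2. The Tmem64 values were 0.0844 and 0.214 without Rbbp4 knockdown replicates 1 and 2, 0.134 and 0.251 without Rbbp7 knockdown replicates 1 and 2, and 0.0866 and 0.0788 without control replicates 1 and 2. Over the 18 alternatives the adjusted p ran from 0.00475 to 0.228 for Neu1 and from 0.00904 to 0.251 for Tmem64.

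Fabp3, the heart-type fatty acid binding protein and a gene of the trophectoderm list (ENSMUSG00000028773, chromosome 4, 130308595 to 130315463), was the most abundant called gene other than the targets. It read 3412 and 3968 in Rbbp4 knockdown embryos, 1984 and 1528 in Rbbp7 knockdown embryos, 2465 and 2242 in double knockdown embryos and 4649 and 4563 in control embryos. All 3 knockdown groups lay below the control, the Rbbp7 knockdown lowest. The single knockdowns differed by 1.08 ± 0.15 (adjusted p = 0.0456). Against the control, Fabp3 had −0.32 ± 0.15 in Rbbp4 knockdown embryos (adjusted p = 0.850) and fell by 1.40 ± 0.15 in Rbbp7 knockdown embryos (adjusted p = 0.0176) and by 0.97 ± 0.15 in double knockdown embryos (adjusted p = 0.0243). This was the least stable of the 10 calls, kept in 8 of 18 alternatives. It ended without Rbbp4 knockdown replicate 1 (adjusted p = 0.228) or 2 (0.312), Rbbp7 knockdown replicate 2 (0.268), control replicate 1 (0.0971) or 2 (0.0839), or double knockdown replicate 1 (0.0651) or 2 (0.0643), and with the single knockdown libraries alone (0.0952), within a range of 0.0154 to 0.312.

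**Figure D2:**
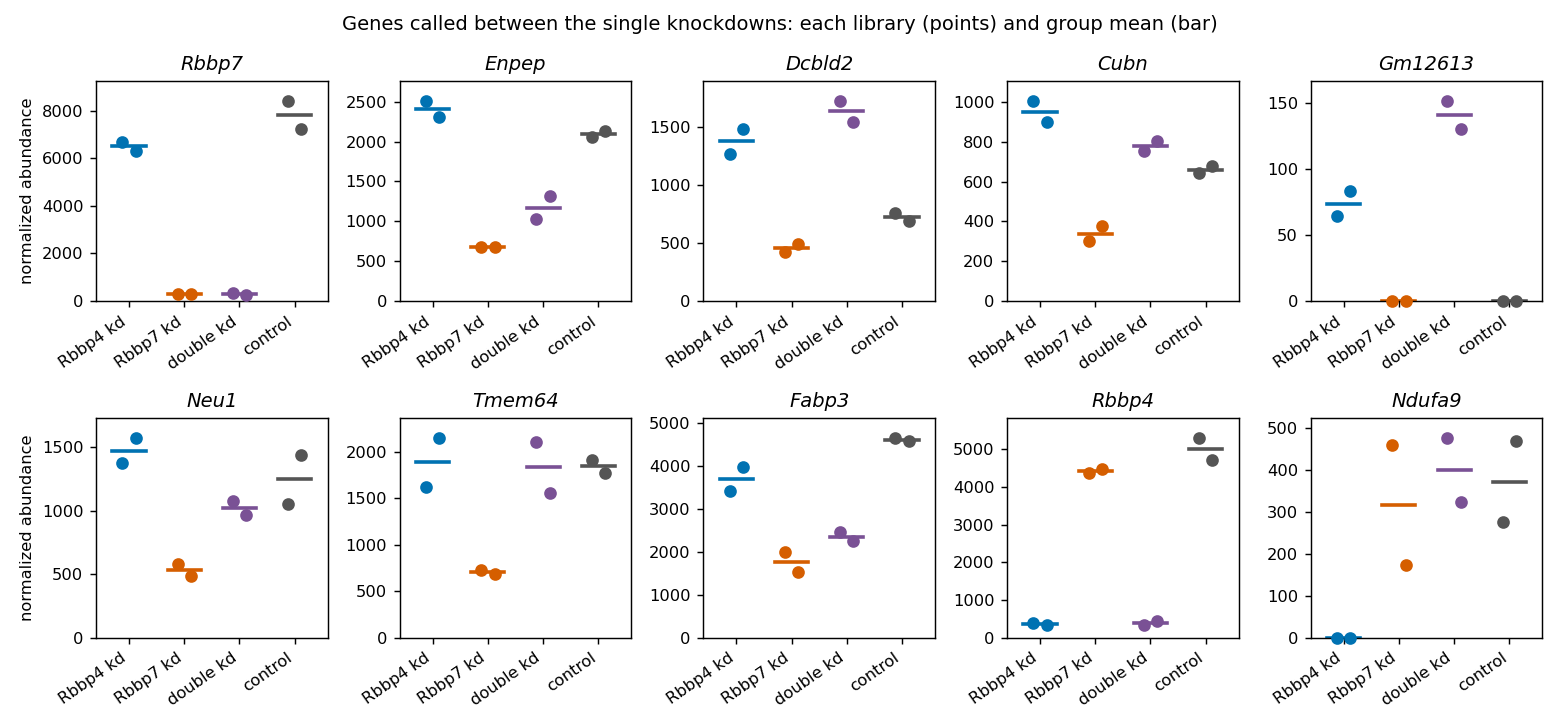
Normalized abundance (vertical axes, linear from 0) of the 10 called genes is plotted in each library (points) with the group mean (bar), in columns for Rbbp4 knockdown, Rbbp7 knockdown, double knockdown and control embryos. In Enpep, Neu1, Tmem64, Cubn, Dcbld2 and Fabp3 the Rbbp7 knockdown is the lowest group, and in Ndufa9 the Rbbp4 knockdown is listed at 0.

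The promoters of 3 of these genes are shown because Enpep and Fabp3 also passed against the control in Rbbp7 knockdown embryos and Cubn held a match to 1 of the motifs searched. The sequences are RefSeq's for the build GRCm38.p6, 250 bases ending just before the RefSeq start, on the strand of the gene: chr3:129332750-129332999 (minus) for Enpep, chr4:130308488-130308737 (plus) for Fabp3 and chr2:13491877-13492126 (minus) for Cubn. RefSeq and the gene coordinates given above place the starts differently. The Fabp3 window runs past 130308595, where the gene begins by those coordinates, so part of it lies inside the gene. Capitals mark a match to the cell cycle homology region motif (CHR, TTTGAA on either strand), which binds the MuvB complex, 1 of the complexes that hold RBBP4.
Enpep: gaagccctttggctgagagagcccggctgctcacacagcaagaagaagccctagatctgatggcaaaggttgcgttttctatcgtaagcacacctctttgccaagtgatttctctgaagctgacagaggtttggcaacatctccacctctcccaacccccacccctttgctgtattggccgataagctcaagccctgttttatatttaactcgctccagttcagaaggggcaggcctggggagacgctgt
Fabp3: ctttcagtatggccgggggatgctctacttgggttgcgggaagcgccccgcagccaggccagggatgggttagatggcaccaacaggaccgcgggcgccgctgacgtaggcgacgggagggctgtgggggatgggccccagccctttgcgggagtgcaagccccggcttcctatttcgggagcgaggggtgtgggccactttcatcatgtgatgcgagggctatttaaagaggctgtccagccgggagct
Cubn: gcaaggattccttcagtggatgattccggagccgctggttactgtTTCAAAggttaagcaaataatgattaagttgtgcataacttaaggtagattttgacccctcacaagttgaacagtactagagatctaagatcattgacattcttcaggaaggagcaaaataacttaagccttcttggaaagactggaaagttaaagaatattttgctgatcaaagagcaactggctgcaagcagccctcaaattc
Of the 7 called protein-coding genes other than the targets, 6 had an entry in this table, and Tmem64 did not. Letters of 6 motifs were searched on both strands: GGAATG for TEAD factors, GCCNNNGGC for AP-2 factors, AGATAA for the GATA family, TTTGAA for the CHR, TTTCCCGC for E2F factors and CACGTG for the E-box. Among the 6 promoters, that of Cubn held the CHR letters, that of Ndufa9 held the TEAD letters, and those of Enpep, Dcbld2, Neu1 and Fabp3 held none of the 6 motifs. Of 9527 promoters of tested genes, 10.5% held the CHR letters, 10.2% TEAD, 20.8% AP-2, 5.73% GATA, 1.79% E2F and 8.63% the E-box. The GC content was 52.4% for Enpep, 64.8% for Fabp3 and 39.6% for Cubn, with a median of 60% over all promoters.

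Ndufa9, a subunit of mitochondrial complex I, had a value of 0 in each of the Rbbp4 knockdown libraries and in no other (ENSMUSG00000000399, chromosome 6, 126821721 to 126849136). It read 0 and 0 in Rbbp4 knockdown embryos, against 459 and 172 in Rbbp7 knockdown embryos, 476 and 323 in double knockdown embryos and 276 and 468 in control embryos. The double knockdown, which received siRNA against Rbbp4 as well, was not low. The adjusted p between the single knockdowns was 1.26e-04, and no fold is given against values listed at 0. Over the 61 tested nuclear genes of complex I and the other respiratory chain complexes the median difference was 0.013. Ndufa9 was the 1 that passed, beside 0.0796% of all tested genes. Of the others, Cox7b had 0.56 ± 0.23 (adjusted p = 0.498), which was 0.22 without Rbbp4 knockdown replicate 1 and 0.91 without Rbbp4 knockdown replicate 2. The mitochondrial share of the signal was 4.48% and 4.70% in Rbbp4 knockdown embryos and 4.29% and 4.43% in Rbbp7 knockdown embryos.

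Gm12613, an unprocessed pseudogene (ENSMUSG00000095291, chromosome 11, 60610136 to 60610517), was listed at 64.0 and 83.0 in Rbbp4 knockdown embryos, 0 and 0 in Rbbp7 knockdown embryos, 151 and 130 in double knockdown embryos and 0 and 0 in control embryos (adjusted p = 0.0173 between the single knockdowns). It was above 0 in the 4 libraries that received siRNA against Rbbp4 and in no other. Gm12613 passed the filter only through those groups, so its calls, here and against the control, are no support for a response to the knockdown. Its level is uncertain, because 10 other genes share at least 95% of their bases with it over at least 50% of its length, and how the authors' counting divided such reads is not given. Summed over the 11 genes, the values were 2697 and 2618 in Rbbp4 knockdown embryos, 2742 and 2499 in Rbbp7 knockdown embryos, 2953 and 2701 in double knockdown embryos and 2678 and 2580 in control embryos, so the single knockdowns overlapped. The call ended without Rbbp4 knockdown replicate 1 (adjusted p = 0.228) or 2 (0.214), Rbbp7 knockdown replicate 2 (0.0820), or double knockdown replicate 1 (0.0651) or 2 (0.0635), and among genes with a mean of at least 50 (0.108), within a range of 5.85e-04 to 0.228.

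Beyond the called genes, those with the next smallest p were taken to fill 12 genes in each direction, and none of them passed. Plau, the urokinase that activates plasminogen, read 1513 and 1671 in Rbbp4 knockdown embryos, 495 and 639 in Rbbp7 knockdown embryos, 2456 and 3660.0 in double knockdown embryos and 614 and 851 in control embryos. Its pattern resembled that of Dcbld2: both Rbbp4 knockdown libraries were above the control and the double knockdown was highest, where it rose by 2.05 ± 0.23 (adjusted p = 0.0114). Between the single knockdowns Plau had 1.50 ± 0.23 (adjusted p = 0.0624). Avil encodes advillin, an actin-binding protein of the villin family. It read 123 and 76.8 in Rbbp4 knockdown embryos, 18.6 and 17.7 in Rbbp7 knockdown embryos, 128 and 102 in double knockdown embryos and 63.4 and 80.0 in control embryos, a difference of 2.36 ± 0.36 between the single knockdowns (adjusted p = 0.0624). Sec11a, the catalytic subunit of signal peptidase, had 0.96 ± 0.14, and Ecpas, an adaptor of the proteasome, had 0.87 ± 0.13 (adjusted p = 0.0624 each). In Avil, Sec11a and Ecpas the Rbbp7 knockdown was the low group, below all 6 other libraries. Exons of Sec11a overlap Nmb on the same strand and Gm16171 on the other strand. Those of Avil overlap Tsfm on the other strand, so reads of these pairs may not be told apart.

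On the lower side, several genes stood apart in Rbbp4 and double knockdown embryos, and others in Rbbp7 knockdown embryos. Pank3, a pantothenate kinase of coenzyme A synthesis, read 5276 and 4495 in Rbbp4 knockdown embryos, 10004 and 9654 in Rbbp7 knockdown embryos, 4732 and 4058 in double knockdown embryos and 10759.5 and 8125 in control embryos. Both groups that received siRNA against Rbbp4 were low and the other groups overlapped. The single knockdowns differed by −1.01 ± 0.15 (adjusted p = 0.0624), and in double knockdown embryos Pank3 fell by 1.09 ± 0.15 against the control (adjusted p = 0.0189). Sac3d1, a SAC3-domain protein, read 136 and 141 in Rbbp4 knockdown embryos, 339.5 and 292 in Rbbp7 knockdown embryos, 161 and 141 in double knockdown embryos and 313 and 309.7 in control embryos. It showed the same order, with −1.18 ± 0.19 between the single knockdowns (adjusted p = 0.0870) and a fall of the double knockdown by 1.04 ± 0.19 against the control (adjusted p = 0.0436). Prkcsh, the beta subunit of glucosidase II in the endoplasmic reticulum, had −0.86 ± 0.14 between the single knockdowns (adjusted p = 0.0870) and −0.71 ± 0.14 in double knockdown embryos against the control (adjusted p = 0.0512).

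Vnn1, the pantetheinase that frees pantothenate from coenzyme A breakdown products, read 1119 and 1279 in Rbbp4 knockdown embryos, 2643 and 2982 in Rbbp7 knockdown embryos, 3265 and 2010.5 in double knockdown embryos and 2645 and 2067 in control embryos. Here the Rbbp4 knockdown alone stood low. The difference was −1.23 ± 0.22 (adjusted p = 0.121). Slc39a2, a zinc importer, read 16.2 and 31.2 in Rbbp4 knockdown embryos and 148 and 122 in Rbbp7 knockdown embryos, against 70.1 and 50.7 in double knockdown embryos and 115 and 105 in control embryos, a difference of −2.52 ± 0.38 (adjusted p = 0.0624). Its double knockdown libraries lay between the Rbbp4 knockdown and the control, and its exons overlap Mettl17 on the same strand. Nppb, the gene of the brain natriuretic peptide, read 27.6 and 26.7 in Rbbp4 knockdown embryos and 187 and 145 in Rbbp7 knockdown embryos, against 86.7 and 78.2 in control embryos, with −2.56 ± 0.47 between the single knockdowns (adjusted p = 0.121). The double knockdown libraries, at 46.2 and 137, fell on either side of the control in Nppb.

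Hdac1, the histone deacetylase of the NuRD and SIN3 complexes, was highest in Rbbp7 knockdown embryos. It read 3362 and 3671 in Rbbp4 knockdown embryos, 5519 and 5804 in Rbbp7 knockdown embryos, 3779 and 3909.6 in double knockdown embryos and 3726 and 3979 in control embryos, a difference of −0.69 ± 0.11 between the single knockdowns (adjusted p = 0.0624). The Rbbp7 knockdown was above all 6 other libraries, and the double knockdown overlapped the control. Hdac1 shares near-identical sequence with 2 other genes, of which Gm10093 is in the table and read 592 and 669 in Rbbp4 knockdown embryos against 1330 and 772 in Rbbp7 knockdown embryos. Nanog, a core factor of the inner cell mass, read 6545 and 6051 in Rbbp4 knockdown embryos, 9093 and 10156 in Rbbp7 knockdown embryos, 4192 and 4692 in double knockdown embryos and 6698 and 6322 in control embryos, with −0.61 ± 0.11 between the single knockdowns (adjusted p = 0.121). The Rbbp4 knockdown overlapped the control, the Rbbp7 knockdown lay above it and the double knockdown below it. Fdx1, a mitochondrial ferredoxin, had −1.16 ± 0.18 (adjusted p = 0.0624), and Skp2, the F-box protein that marks the inhibitor p27 for destruction, had −0.70 ± 0.13 (adjusted p = 0.121). Both were highest in Rbbp7 knockdown embryos.

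**Figure D3:**
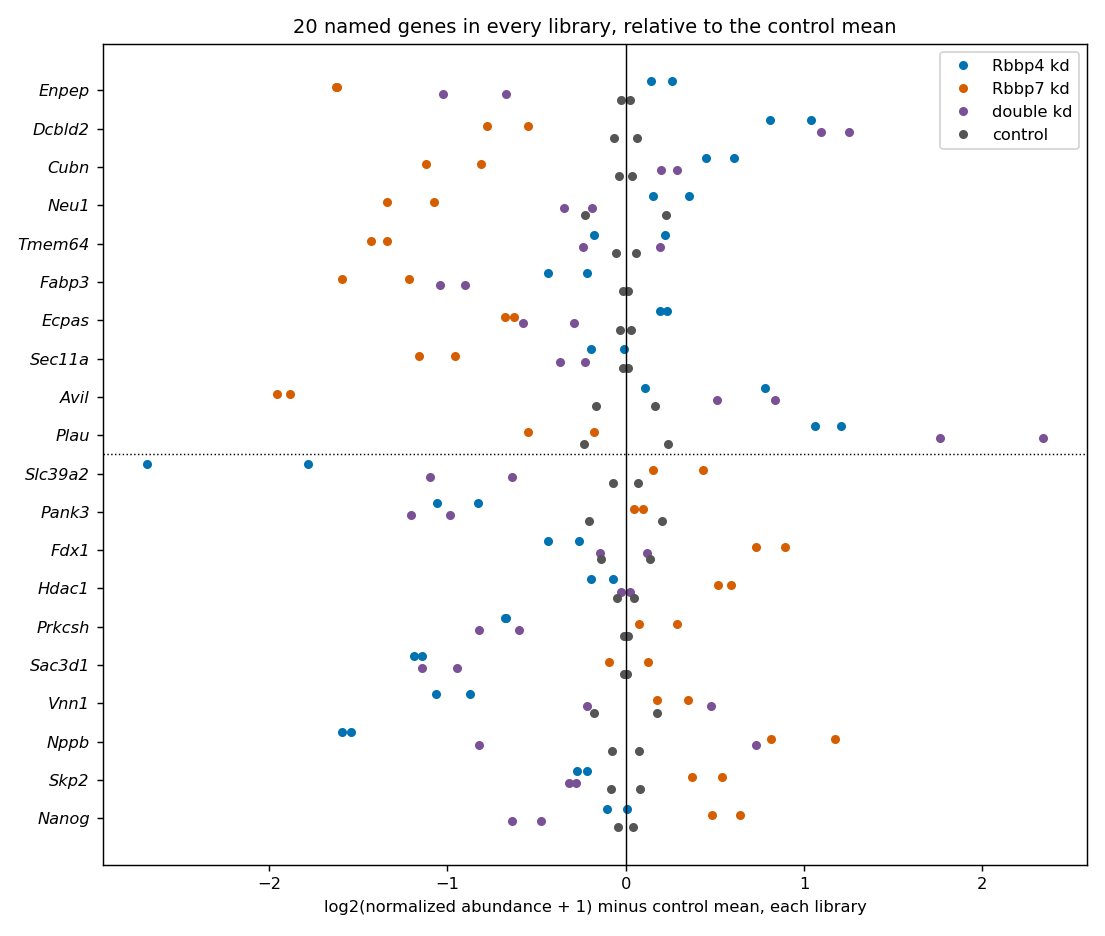
Each point is 1 library of Rbbp4 knockdown, Rbbp7 knockdown, double knockdown or control embryos, placed by its log2(value + 1) minus the control mean (horizontal axis), for 20 named genes (rows). Above the dotted line are genes with higher values in Rbbp4 knockdown embryos than in Rbbp7 knockdown embryos, below it those with lower values, and only Enpep, Dcbld2, Cubn, Neu1, Tmem64 and Fabp3 passed the test.

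The double knockdown against the control shares no library with the comparison of the single knockdowns, so the 2 sets of values can be read against each other. Leaving out the targets, of 676 genes with an unadjusted p below 0.05 and higher values in Rbbp4 knockdown embryos, 52.7% were higher in double knockdown embryos than in control embryos, against 49.9% of all tested genes. Of 490 genes with lower values in Rbbp4 knockdown embryos, 59.8% were lower in double knockdown embryos than in control embryos, against 6287 of all 12565 tested genes. Among the 11 named genes on the lower side other than Rbbp4, 9 were lower in double knockdown embryos than in control embryos and 2 higher. Among the 11 on the higher side other than Rbbp7, 5 were higher and 6 lower. Enpep and Fabp3 passed as lower in double knockdown embryos, and Dcbld2, Plau and Gm12613 as higher among those on the higher side, and Pank3 and Sac3d1 passed as lower among those on the lower side, beside 1.15% of all tested genes called in that comparison, 0.645% higher and 0.501% lower. These shares are descriptions, since genes are not independent of each other.

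**Figure D4:**
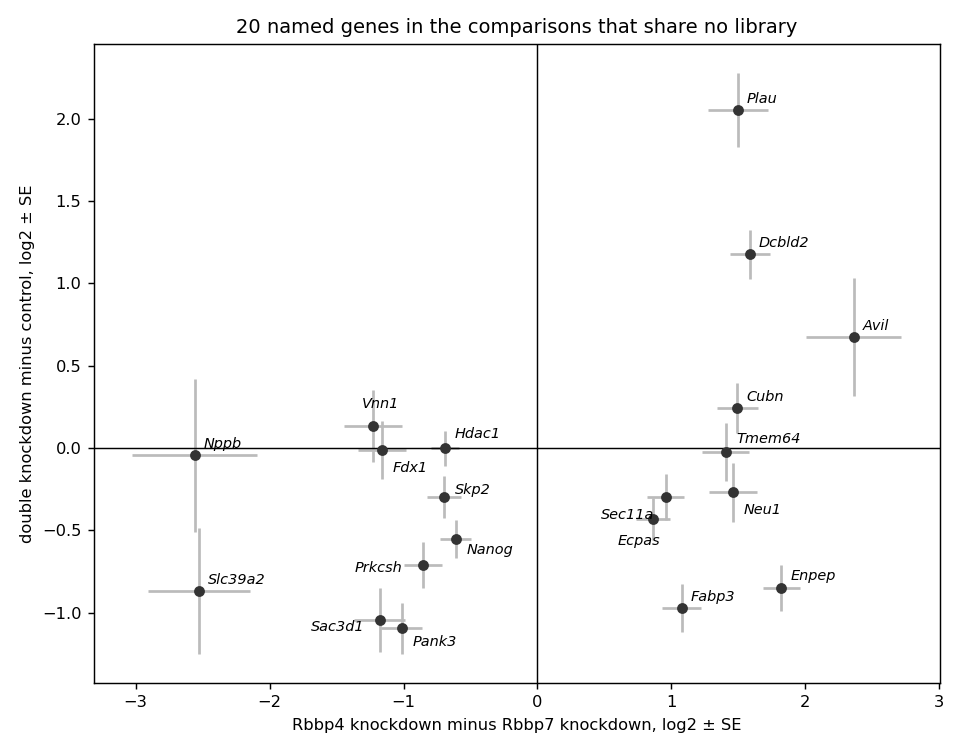
For 20 named genes, the log2 difference between the single knockdowns, Rbbp4 knockdown minus Rbbp7 knockdown (horizontal axis), is plotted against the log2 difference of the double knockdown minus the control (vertical axis), each with its standard error. Plau and Dcbld2 lie high in both, Enpep and Fabp3 are positive on the first and negative on the second, and Pank3 and Sac3d1 are negative on both.

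The gene lists were chosen with earlier results of these data known, so their counts and shares are descriptions only. Trophectoderm genes were the list with the largest median difference among the lists drawn in the plot of gene lists. Of 36 tested members, 28 had higher and 8 lower values in Rbbp4 knockdown embryos than in Rbbp7 knockdown embryos, with a median of 0.32 against −0.002 for all tested genes. Only Fabp3 passed. At an unadjusted p below 0.05 there were 13 higher and 1 lower, or 38.9% of members against 9.3% of all genes, and the 2 knockdowns did not overlap in 63.9% of members against 45.6% of all genes. The list's median against the control was −0.11 in Rbbp4 knockdown embryos, −0.48 in Rbbp7 knockdown embryos and −0.21 in double knockdown embryos. In whole-embryo RNA, fewer cells of a type and less RNA per cell cannot be told apart.

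The keratins of the trophectoderm showed this order. Krt18 read 3217 and 2395 in Rbbp4 knockdown embryos, 1174 and 1421 in Rbbp7 knockdown embryos, 1545 and 1959 in double knockdown embryos and 3299.9 and 4116 in control embryos, and its filament partner Krt8 read 5272 and 4737 in Rbbp4 knockdown embryos, 2400.1 and 2575 in Rbbp7 knockdown embryos, 3326 and 4333 in double knockdown embryos and 4742 and 6946 in control embryos. Between the single knockdowns Krt18 had 1.10 ± 0.19 (adjusted p = 0.106) and Krt8 had 1.01 ± 0.19 (adjusted p = 0.121), and the groups did not overlap in either gene. Lrp2, the megalin receptor that takes up proteins at the apical surface, read 21970.2 and 18112 in Rbbp4 knockdown embryos and 10437 and 13401 in Rbbp7 knockdown embryos, against 21859 and 20929 in control embryos, with 0.75 ± 0.14 between the single knockdowns (adjusted p = 0.130). The list's median stayed between 0.24 and 0.35 over the 18 alternatives.

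Genes of cell junctions, polarity and blastocyst cavitation leaned the same way without a member that passed. Of 39 tested, 28 had higher and 11 lower values in Rbbp4 knockdown embryos, with a median of 0.12, and at an unadjusted p below 0.05 there were 7 higher and 0 lower, or 17.9% of members against 9.3% of all genes. The knockdowns did not overlap in 59.0% of members against 45.6% of all tested genes; 21 of the 39 members were higher without overlap and 2 lower, against 22.9% and 22.7% of all tested genes. Atp1b1, the beta subunit of the sodium pump that drives cavitation, read 852 and 762 in Rbbp4 knockdown embryos and 499 and 544 in Rbbp7 knockdown embryos, against 504 and 446 in double knockdown embryos and 1000.4 and 1073 in control embryos. The Rbbp4 knockdown was intermediate and the Rbbp7 and double knockdowns were low. The difference between the single knockdowns was 0.63 ± 0.14 (adjusted p = 0.202). The epithelial adhesion protein Epcam had 0.69 ± 0.18 (adjusted p = 0.255), the desmosomal linker Dsp 0.63 ± 0.18 (adjusted p = 0.283) and the desmosomal cadherin Dsc2 2.19 ± 0.63 (adjusted p = 0.300). Without Rbbp7 knockdown replicate 1, Dsp was at 0.37 and Dsc2 at 1.32. The list's median was 0.21 without Rbbp4 knockdown replicate 1, the highest of a range from 0.11.

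Among apical membrane and endolysosomal genes the difference sat in a few members. The median over 39 tested was 0.042, with 21 higher and 18 lower values in Rbbp4 knockdown embryos, and the median turned to −0.013 without Rbbp7 knockdown replicate 2. Enpep and Cubn passed, beside 0.0796% of all tested genes, and at an unadjusted p below 0.05 there were 10 higher and 0 lower, or 25.6% of members against 9.3% of all genes. This list, too, was chosen with earlier results of these data known, so its shares are descriptions and no support. After Enpep, Cubn and Lrp2 the next smallest p was that of Dpp4, a surface dipeptidyl peptidase, which read 530.1 and 394 in Rbbp4 knockdown embryos and 188 and 173 in Rbbp7 knockdown embryos, against 393 and 202 in control embryos. It had 1.34 ± 0.35 between the single knockdowns (adjusted p = 0.252). Neu1 was not on this list.

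Pluripotency genes leaned the other way. Of 24 tested, 10 had higher and 14 lower values in Rbbp4 knockdown embryos, with a median of −0.11, and 0 passed. At an unadjusted p below 0.05 there were 1 higher and 6 lower, or 29.2% of members against 9.3% of all genes. Fgf4, the growth factor of the inner cells, read 152 and 103 in Rbbp4 knockdown embryos, 605 and 385 in Rbbp7 knockdown embryos, 209 and 99.2 in double knockdown embryos and 177 and 150.4 in control embryos. The Rbbp7 knockdown was above every other library, and the difference was −1.94 ± 0.37 (adjusted p = 0.130). The Nodal co-receptor Tdgf1 had −0.87 ± 0.27 (adjusted p = 0.344), and the threonine dehydrogenase Tdh had −0.45 ± 0.15 (adjusted p = 0.364). Against the control, the list's median was 0.018 in Rbbp4 knockdown embryos and 0.12 in Rbbp7 knockdown embryos. The list's median was −0.061 under quantile normalization.

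In primitive endoderm genes, Cubn, also on the apical list, was the 1 of 16 that passed, beside 0.0796% of all tested genes. At an unadjusted p below 0.05 there were 2 higher and 1 lower, or 18.8% of members against 9.3% of all genes. The single knockdowns did not overlap in 43.8% of members against 45.6% of all genes. The median of 0.18 moved between 0.06 without Rbbp7 knockdown replicate 1 and 0.41 without Rbbp7 knockdown replicate 2. The laminin chain Lamb1 had 1.01 ± 0.22 (adjusted p = 0.192) and the collagen chain Col4a2 −0.56 ± 0.15 (adjusted p = 0.269), in opposite directions. Of 28 Notch, WNT and BMP genes, 19 had higher and 9 lower values in Rbbp4 knockdown embryos, with a median of 0.22, and 0 passed. Id2, a protein that blocks basic helix-loop-helix factors and is high in trophectoderm, read 248 and 270.2 in Rbbp4 knockdown embryos, 145 and 132 in Rbbp7 knockdown embryos, 108 and 93.8 in double knockdown embryos and 330.3 and 296 in control embryos. The Rbbp7 knockdown lay between the single Rbbp4 knockdown and the double knockdown. The difference between the single knockdowns was 0.90 ± 0.21 (adjusted p = 0.202), while the related Id3 had −0.59 ± 0.22 (adjusted p = 0.442). The ligand Wnt7b had 0.95 ± 0.24 (adjusted p = 0.233) and the BMP inhibitor Smad7 0.54 ± 0.22 (adjusted p = 0.498). Smad7 was at 0.90 without Rbbp7 knockdown replicate 1 and 0.17 without Rbbp7 knockdown replicate 2. The median of this list was 0.12 without Rbbp4 knockdown replicate 1 and 0.30 without Rbbp4 knockdown replicate 2.

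The complexes that contain RBBP4 and RBBP7 differed little in the RNA of their other subunits, with 0 members called in any of them. NuRD was the exception in number: of 13 subunits 3 had higher and 10 lower values in Rbbp4 knockdown embryos, and 5 had an unadjusted p below 0.05, 2 higher and 3 lower, or 38.5% against 9.3% of all genes. Cdk2ap1, a small NuRD subunit, read 3189 and 3033 in Rbbp4 knockdown embryos and 2058 and 1910.2 in Rbbp7 knockdown embryos, against 3545 and 2847 in control embryos, with 0.65 ± 0.14 between the single knockdowns (adjusted p = 0.173). Mta2, a scaffold of the complex, had −0.56 ± 0.14 (adjusted p = 0.227). Hdac2, the partner of Hdac1, had 0.43 ± 0.13 (adjusted p = 0.344), the opposite sign to Hdac1. The NuRD median of −0.096 reached −0.25 without Rbbp4 knockdown replicate 2.

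Of 10 PRC2 subunits and 15 SIN3 subunits, 0 had an unadjusted p below 0.05, with medians of 0.0082 and 0.074. MuvB and pocket protein genes had a median of 0.054 over 13, with 1 below 0.05 unadjusted, E2f5, at −1.08 ± 0.43 (adjusted p = 0.470). All 4 tested NURF subunits had lower values in Rbbp4 knockdown embryos, with a median of −0.19 and 0 below 0.05 unadjusted. Without 1 library the medians of SIN3, MuvB and NURF genes reached 0.0074 (Rbbp7 knockdown replicate 1), −0.011 (Rbbp4 knockdown replicate 1) and −0.11 (Rbbp7 knockdown replicate 2). Among 17 H3 and H4 chaperone and H3.3 genes the median was −0.037. H3f3b, a gene for the replacement histone H3.3 that the series title names, read 7184 and 8728 in Rbbp4 knockdown embryos, 5671 and 6894 in Rbbp7 knockdown embryos, 12632 and 13024 in double knockdown embryos and 6557 and 6874 in control embryos. The single knockdowns did not overlap, but the difference of 0.34 ± 0.13 did not pass (adjusted p = 0.466) and was 0.20 without Rbbp4 knockdown replicate 2 or without Rbbp7 knockdown replicate 1. H3f3b rose in double knockdown embryos by 0.93 ± 0.13 against the control (adjusted p = 0.0208).

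Genes of G2 and mitosis had mostly lower values in Rbbp4 knockdown embryos, in 37 of 54, with a median of −0.1, 0 called, and 1 higher and 6 lower at an unadjusted p below 0.05, or 13.0% of members against 9.3% of all genes. Cdk1, the kinase of mitotic entry, read 1939.7 and 2237 in Rbbp4 knockdown embryos and 3233 and 3086 in Rbbp7 knockdown embryos, against 2113 and 2308 in double knockdown embryos and 3212 and 2361 in control embryos. The single knockdowns did not overlap, and the control spanned most of the distance between them. Cdk1 had −0.60 ± 0.16 (adjusted p = 0.252), the midbody kinesin Kif23 −0.47 ± 0.12 (adjusted p = 0.252), the ubiquitin-conjugating enzyme Ube2c −0.51 ± 0.14 (adjusted p = 0.262) and the anaphase activator Cdc20 −0.46 ± 0.14 (adjusted p = 0.327). The list's median against the control was −0.13 in Rbbp4 knockdown embryos, −0.036 in Rbbp7 knockdown embryos and −0.29 in double knockdown embryos. It was −0.057 between the single knockdowns without Rbbp7 knockdown replicate 2.

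Genes of protein synthesis shifted by small amounts in 1 direction. Of 75 cytosolic ribosomal protein genes, 67 had lower values in Rbbp4 knockdown embryos than in Rbbp7 knockdown embryos, with a median of −0.10, and of 42 ribosome biogenesis genes 38 did, with a median of −0.16; 0 members of either list passed. The ribosomal protein list moved to −0.054 under quantile normalization, and the biogenesis list stayed between −0.23 and −0.12. Summed over the list, ribosomal protein genes read 538598 to 563011 in Rbbp4 knockdown embryos and 592951 to 594936 in Rbbp7 knockdown embryos. Among biogenesis genes, Nolc1, a nucleolar chaperone, had −1.10 ± 0.27 (adjusted p = 0.228), the RNA helicase Ddx21 −0.32 ± 0.11 (adjusted p = 0.385) and Npm1, nucleophosmin, −0.38 ± 0.14 (adjusted p = 0.452). Nolc1 was at −0.70 without Rbbp4 knockdown replicate 1. The shift of all genes under quantile normalization was −0.011.

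Fatty acid genes had higher values in Rbbp4 knockdown embryos in 19 of 22, with a median of 0.23. Fabp3 was the 1 called, beside 0.0796% of all tested genes. The single knockdowns did not overlap in 77.3% of members against 45.6% of all genes. Elovl6, an elongase of long-chain fatty acids, read 4603 and 3997 in Rbbp4 knockdown embryos, 2315 and 2552 in Rbbp7 knockdown embryos, 2434 and 3105 in double knockdown embryos and 3668 and 4556 in control embryos. The Rbbp4 knockdown overlapped the control and the Rbbp7 knockdown was low. Elovl6 had 0.82 ± 0.16 (adjusted p = 0.130), and Dgat2, which makes triglycerides, had 1.20 ± 0.30 (adjusted p = 0.230), or 0.72 without Rbbp7 knockdown replicate 2. Elovl3 read 18.6 and 41.6 in Rbbp4 knockdown embryos, 8.72 and 6.25 in Rbbp7 knockdown embryos, 196 and 159 in double knockdown embryos and 3.80 and 6.01 in control embryos, with 1.78 ± 0.57 between the single knockdowns (adjusted p = 0.347). Each Rbbp7 knockdown and control library lay below 10 in Elovl3. The gene passed the filter only through the groups given siRNA against Rbbp4, so its difference is no support for the list. Glycolysis genes had a median of 0.19 over 20, with 12 higher and 8 lower values and 0 called, while 1 higher and 3 lower had an unadjusted p below 0.05 (20% against 9.3% of all genes). The 3 were the phosphoglycerate mutase Pgam1 at −0.45 ± 0.12 (adjusted p = 0.252), the hexokinase Hk1 at −0.50 ± 0.16 (adjusted p = 0.364) and the phosphofructokinase Pfkl at −0.51 ± 0.18 (adjusted p = 0.394), or −0.33 for Pfkl without Rbbp7 knockdown replicate 1. The 1 higher was the lactate carrier Slc16a1 at 0.39 ± 0.13 (adjusted p = 0.361). Their median was 0.093 without Rbbp7 knockdown replicate 2.

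**Figure D5:**
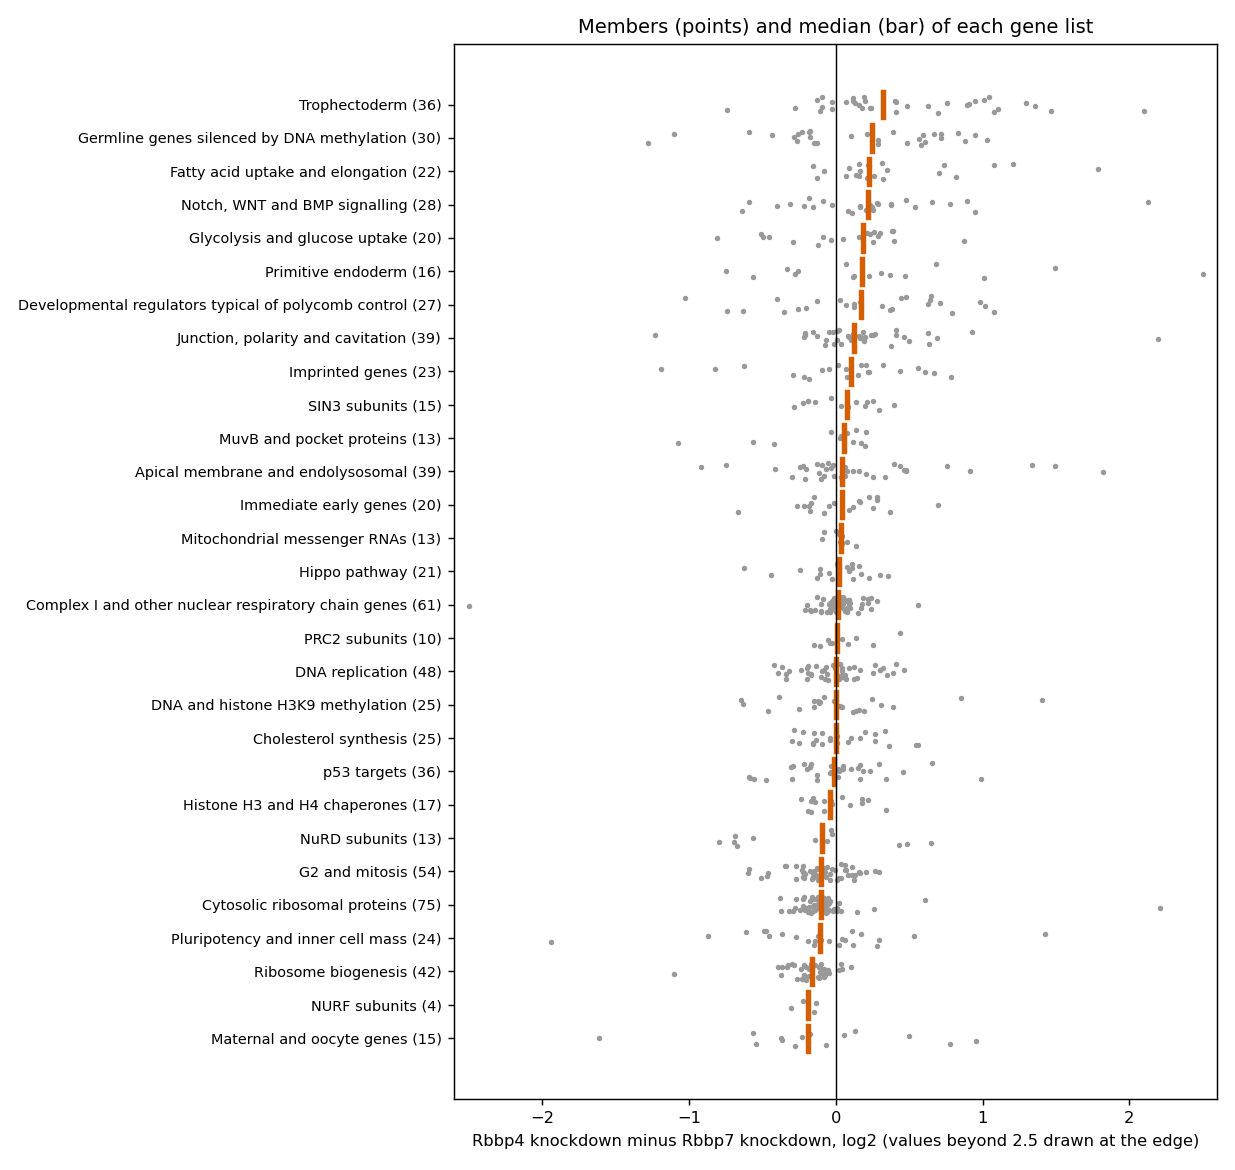
For 29 gene lists (rows, number of tested members in brackets), each point is the log2 difference of 1 member, Rbbp4 knockdown minus Rbbp7 knockdown (horizontal axis), and the bar is the list's median. The thin vertical line is the median of all tested genes, and 2 values beyond 2.5 are drawn at the edge; the trophectoderm median lies farthest to the right at 0.32, and the ribosome biogenesis median at −0.16.

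Germline genes and developmental regulators differed in single members. Of 36 listed germline genes 30 passed the filter on low values. The filter takes the mean over all 8 libraries, double knockdown included, so passing it does not show expression in the single knockdowns or the control. Of 30 tested germline genes under control of DNA methylation, 17 had higher and 13 lower values in Rbbp4 knockdown embryos, with 0 called and 3 below 0.05 unadjusted in each direction, or 20% of them against 9.3% of all genes. Their median of 0.25 was 0.024 without Rbbp7 knockdown replicate 1. The meiotic axis gene Sycp1 had 0.88 ± 0.27 (adjusted p = 0.336) and its partner Sycp3 0.67 ± 0.22 (adjusted p = 0.364). Sycp1 was at 0.51 without Rbbp7 knockdown replicate 1. The germ cell RNA-binding gene Dazl had −1.28 ± 0.46 (adjusted p = 0.399). Developmental regulators typical of polycomb control had a median of 0.17 over the 27 of 76 listed that passed the filter on low values, and 0.017 without Rbbp4 knockdown replicate 1. Sox9 read 125 and 89.6 in Rbbp4 knockdown embryos, 45.9 and 58.5 in Rbbp7 knockdown embryos, 338 and 290.3 in double knockdown embryos and 57.3 and 80.2 in control embryos, with 1.02 ± 0.30 between the single knockdowns (adjusted p = 0.315). Hand1, a trophoblast transcription factor, had −0.74 ± 0.18 (adjusted p = 0.215). A member of these lists could pass the filter through the group in which it is high, so their counts describe only the genes that passed it.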

How the data were processed

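The labels' protocols state that RNA from the 8 libraries of late morulae was selected on oligo(dT) beads, fragmented, reverse transcribed and amplified by PCR. Per the submitters' processing notes, the tools were Trimmomatic, HISAT2, featureCounts and DESeq2 and the build GRCm38, with versions, settings and annotation release not given in the sources used here. Each deposited value is a signal per Ensembl gene that the authors normalized with DESeq2, as the table's name says, and not a raw count. Low values shared no single step over genes, so whole reads could not be recovered, depth is unknown, and no count model or counting interval is given. The double knockdown's column name differs from its sample titles by 1 letter and was matched by the genes it names. Of 19058 genes in the table, 18942 had a symbol in the annotation and 116 had none, and 0 columns belonged to other samples.

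The scale was log2(value + 1), which understates changes of low genes. A gene was tested if its mean over all 8 libraries reached 10, which kept 12565 and left out 6493. Limma 3.58.1 (R 4.3.3) estimated 1 mean for every group from all 8 libraries with an intensity trend, on 4 residual and 5.18 prior degrees of freedom. Two-sided tests had Benjamini-Hochberg adjustment over all tested genes, with calls below 0.05; scripts were tested on simulated data. Errors after log2 values are standard errors of the fit. Named genes were all called genes, the smallest p values up to 12 per direction, Rbbp4, Rbbp7 and H3f3b, and in each list described the called members and up to 4 with the smallest p. The genes, the 35 lists and the comparison were chosen with earlier results of these data known, so lists are described by counts and medians with no test. Near-identical genes were found with blastn 2.17.0 on GENCODE transcripts of GRCm38 (at least 95% identity over at least 50% of the length). Alternatives covered the pseudocount, the filter, the scaling, the variance model, the libraries fitted, a replicate block and leaving out each library.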

Additional observations from a re-analysis of the deposited data

Results flagged for a closer look

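Ndufa9, a complex I subunit, differed by the interaction test: the double knockdown minus the Rbbp7 knockdown, less the Rbbp4 knockdown minus the control, was 8.97 ± 0.68 on the log2 scale (limma, adjusted p = 0.00344). Both Rbbp4 knockdown libraries had it at 0, against 476 and 323 in double knockdown embryos, 459 and 172 in Rbbp7 knockdown embryos and 276 and 468 in control embryos. The fitted size depends on the added 1, because 1 group is listed at 0.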

How the results depend on the processing

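Rbbp4, Rbbp7 and Ndufa9 were called in all 18 alternatives, Enpep in 17, Dcbld2 in 16, Cubn in 14, Neu1 in 13, Gm12613 in 12, Tmem64 in 10 and Fabp3 in 8, and none of the named genes changed direction. With no intensity trend, 7 genes were called, 4 higher and 3 lower, of which 4 were among the 10, and Enpep had an adjusted p of 0.0587. With the 4 single knockdown libraries alone, 18 genes were called, 14 higher and 4 lower, of which 9 were among the 10. With 1 weight per group (1.43 for the Rbbp4 knockdown, 1.23 for the Rbbp7 knockdown, 0.791 for the double knockdown and 0.719 for the control), 65 genes were called, 45 higher and 20 lower, including all 10, all 24 genes chosen by p over both directions, and Krt18, Krt8, Fgf4, Elovl6, Cdk2ap1 and Mob1a. These weights were estimated from the spread of the same libraries, which was smallest in the single knockdowns. The 24 genes were picked by p from the same data, so their calls here are no separate support. Leaving out each library gave 6 to 14 calls, 2 to 12 higher and 2 to 5 lower. Same-numbered libraries did not deviate together: their replicate differences correlated at −0.0221 to 0.051 across genes, and −0.0156 between the single knockdowns. The replicate block gave 12 calls, 8 higher and 4 lower, 8 of them among the 10. It ended the calls of Tmem64 (adjusted p = 0.0541) and Fabp3 (0.0619), and Plau (0.0108) and Pank3 (0.0254) passed. Pseudocounts of 5 and 0.5, quantile normalization and TMM scaling each gave 10 calls, 8 higher and 2 lower. No filter gave 11 and a mean of at least 50 gave 9. The causes were not tested. Medians of lists near 0, such as PRC2, H3 and H4 chaperones, DNA replication and cholesterol synthesis, changed sign in 2 or 3 of the alternatives.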

Other observations

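Further gene groups differed between the single knockdowns in single members, none of which passed (limma with Benjamini-Hochberg adjustment). Jun, an immediate early transcription factor, read 731 and 634 in Rbbp4 knockdown embryos, 1109 and 1050.2 in Rbbp7 knockdown embryos, 595 and 590.2 in double knockdown embryos and 728 and 798 in control embryos, with −0.66 ± 0.14 between the single knockdowns (adjusted p = 0.161). The Rbbp7 knockdown alone stood high. Trim28, the corepressor of zinc finger proteins at silenced repeats, read 7978 and 7708 in Rbbp4 knockdown embryos, 11056 and 10537 in Rbbp7 knockdown embryos, 7157 and 6402 in double knockdown embryos and 10829 and 10007 in control embryos, with −0.46 ± 0.11 between the single knockdowns (adjusted p = 0.206). Mob1a, an activator of the Hippo kinases, read 959 and 974 in Rbbp4 knockdown embryos, 1528 and 1456 in Rbbp7 knockdown embryos, 908 and 906 in double knockdown embryos and 1901 and 1569.6 in control embryos, with −0.63 ± 0.13 (adjusted p = 0.164). In Trim28 and Mob1a both groups that received siRNA against Rbbp4 were low, and the double knockdown fell against the control (adjusted p = 0.0341 for Trim28 and 0.0178 for Mob1a).

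Of 36 tested p53 targets, 17 had higher and 19 lower values in Rbbp4 knockdown embryos than in Rbbp7 knockdown embryos, with a median of −0.014, or −0.074 without Rbbp7 knockdown replicate 2. Against the control, the median was 0.23 in Rbbp4 knockdown embryos and 0.22 in Rbbp7 knockdown embryos. Tigar, which limits glycolysis, had −0.56 ± 0.13 (adjusted p = 0.199), and the stress sensor Sesn2 had 0.65 ± 0.15 (adjusted p = 0.208). Of 48 DNA replication genes 24 had higher and 24 lower values, with a median of 0.0031. Cholesterol synthesis genes had a median of 0.00099 over 25, with the feedback regulator Insig1 at 0.54 ± 0.16 (adjusted p = 0.307). The medians were 0.11 over 23 imprinted genes and −0.19 over 15 maternal and oocyte genes, and without Rbbp7 knockdown replicate 1 they were 0.033 and −0.039. The 2-cell stage list had a median of −0.25 over 10 genes, which was −0.62 without Rbbp4 knockdown replicate 1 and 0.45 without Rbbp4 knockdown replicate 2.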
